A study of Talpa occidentalis with 6 samples.

Results

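In the testis of 7-day-old Iberian moles, 1763 short stretches of chromatin carried state 1, taken here as the most accessible state of the segmentation. Over them, both portions of the female ovotestis stayed at least 2 steps away in the series of states. These stretches made up 5.04% of the 34980 testis segments in state 1 on the 16 scaffolds examined (95% Wilson interval 4.82% to 5.27%). They were chosen by their measured states: a segment of state 1 in the testis, over which the ovarian portion and the testicular portion held only states 3, 4 or 5. The scaffolds were 1 to 17 of the assembly talOcc4 without scaffold 15. These regions are called testis-only regions here. The name says that state 1 was reached in the testis alone among these tissues, and does not say that the portions lacked accessibility.

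The data are ATAC-seq profiles, in which a transposase cuts accessible DNA, from gonads of wild-type Talpa occidentalis at postnatal day 7. The 6 samples comprised 2 of the testis and, from the female ovotestis, 2 of its ovarian and 2 of its testicular portion, and each reaction used 50000 dissociated cells. No treatment or transgene is named for any group. Each tissue has 1 deposited segmentation, which gives every 200 bp bin a state from 1 to 5, so no value exists for a single sample and no spread between samples could be computed. The sequencing depth is unknown. By the library numbers in the titles, the 2 testis libraries form a separate series from the 4 consecutive libraries of the portions, so tissue and library series cannot be told apart wherever the testis is set against a portion. Intervals cover counting error only, and neighbouring regions are not independent of each other.

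Accessible stretches of chromatin are where transcription factors reach DNA, and they include promoters, which start transcription, and enhancers, which raise it from a distance. Enhancers tend to differ more between cell types than promoters do. Female moles carry ovotestes, in which an ovarian portion with oocytes adjoins a testicular portion that produces androgen and lacks germ cells, whereas the testis of the male holds Sertoli cells, Leydig cells, peritubular cells and germ cells. Mixed cells of each testis or ovotestis portion were profiled together. Fewer cells of a type with an open region and a lower accessibility in each cell therefore cannot be told apart. State 1 was taken as the accessible state because it lies at the end of the ordered states and carries the red colour in the deposited files. States 4 and 5, which covered 60.3% of the bins in the testis, are called low here. Gene positions on this assembly were not used here, so no gene, promoter or cell type is assigned to a region, and the sequence of the regions was not analysed.

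Most testis-only regions held the intermediate state 3 in a portion, and few were low in both. Over 996 regions, or 56.5% (54.2% to 58.8%), both portions held state 3 throughout. By the most open bin of each portion, 1036 regions were at state 3 in both, 353 were at state 3 in the testicular portion with state 4 or 5 in the ovarian portion, and 149 were the other way round. The remaining 225 were at state 4 or 5 in both portions, which is 12.8% of the regions (11.3% to 14.4%) and 0.643% of all testis segments in state 1. In all, 87.2% reached state 3 in at least 1 portion. The testicular portion reached state 3 over 78.8% of the regions (76.8% to 80.6%) and the ovarian portion over 67.2% (65.0% to 69.4%). Within the states that the rule allowed, the testicular portion thus reached state 3 more often than the ovarian portion. State 5 was seen over 2 regions in the ovarian and over 0 of 1763 in the testicular portion, with a Wilson upper limit of 0.217% (3 counts, the most that a count of 0 allows, would be 0.17%). State 3 is common in the genome at large: it covered 32.0% of the bins in the ovarian and 33.8% in the testicular portion.

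**Figure D1:**
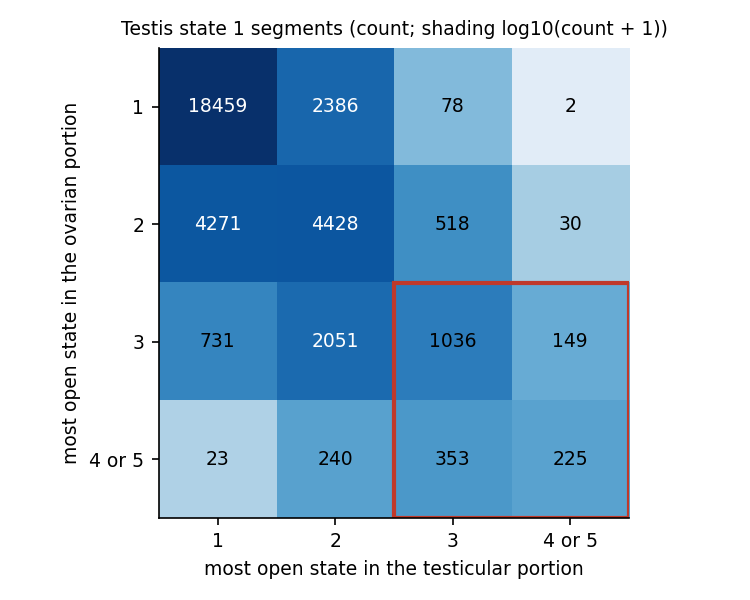
Counts of the 34980 testis segments in state 1, by the most open state that the ovarian portion (rows) and the testicular portion (columns) reached over them, with shading on a log10 scale. The red frame holds the 1763 testis-only regions, most of which lie in the corner with state 3 in both portions (1036), and the largest count outside the frame is the 18459 segments in state 1 in all tissues.

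How many segments lay just outside the limit differed between the portions. With the ovarian portion at state 3, 2051 segments had state 2 as the most open state of the testicular portion, against 1036 that stayed at state 3. These were 5.86% and 2.96% of all testis segments in state 1, the base of the shares below. With the testicular portion at state 3, 518 segments (1.48%) had state 2 as the most open state of the ovarian portion, fewer than the same 1036. In 4428 segments (12.7%) both portions reached state 2 and went no further. Segments low or intermediate in the ovarian portion alone numbered 3045 (8.7%). Those low or intermediate in the testicular portion alone were fewer, at 628 (1.8%). Of those 3045 segments, 754 were in state 1 in the testicular portion as in the testis.

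Although chosen for their lower states there, the regions coincided with a local rise in both portions. In the ovarian portion, states 1 to 3 were found at the centre of 66.3% of the regions, all of them in state 3 by the rule. This share was 44.6% at 1 kb from the centre, 39.0% at 2 kb and 38.0% at 10 kb. In the testicular portion it was 78.05% at the centre, 51.1% at 1 kb, 42.7% at 2 kb and 40.1% at 10 kb. The levels at 10 kb were close to the shares over all bins of the 16 scaffolds, 37.8% and 39.1%. At 2 kb the share in each portion was already within 3 points of its level at 10 kb. States 1 to 2 showed the reverse, since the rule left out bins of state 2 at the regions: at 10 kb they covered 5.08% of bins in the ovarian and 4.76% in the testicular portion. In the testis, states 1 to 2 covered 53.3% of bins at 0.4 kb, 9.61% at 1 kb and 7.2% at 10 kb, against 5.63% over all bins.

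**Figure D2:**
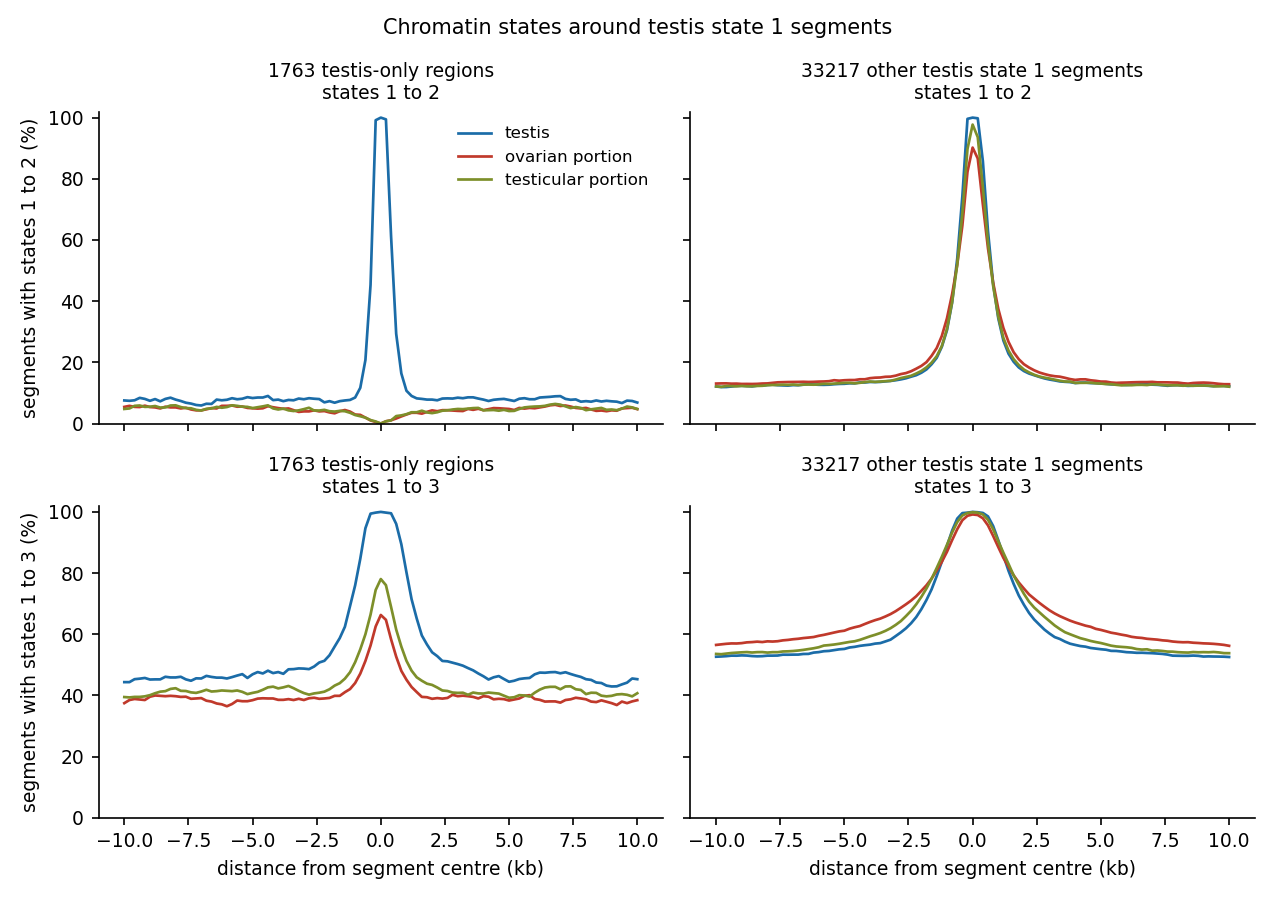
Share of segments (vertical axes, %) whose bin at each distance from the segment centre (horizontal axes, kb) held states 1 to 2 (top) or states 1 to 3 (bottom), in the testis (blue), the ovarian portion (red) and the testicular portion (green). On the left, the testis-only regions show a peak in the testis and, for states 1 to 3, smaller peaks in the portions that reach 78.05% and 66.3%. On the right, the other 33217 testis segments peak in every tissue.

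The regions were short. Of the 1763, 1128 (64.0%) were a single bin of 200 bp, 515 (29.2%) were 400 bp and 98 (5.56%) were 600 bp, with 16 of 800 bp and 6 of 1000 bp. None of the 2467 testis segments of 1200 bp or more was among them, with a Wilson upper limit of 0.156% (3 counts would be 0.122%). The mean length was 288.8 bp with an SD of 134.7 bp between regions, against 516.9 bp with an SD of 379.9 bp for the other 33217 testis segments. The share of testis-only regions fell with each step of length: it was 9.61% of segments of 200 bp (9.09% to 10.2%), 4.84% of 400 bp (4.45% to 5.26%), 1.85% of 600 bp (1.52% to 2.25%) and 0.517% of 800 bp (0.318% to 0.837%). A longer segment has more bins that must all meet the rule in both portions, so the rule itself takes part in this order. Together the regions held 509.2 kb of the 1916 Mb segmented on these scaffolds.

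**Figure D3:**
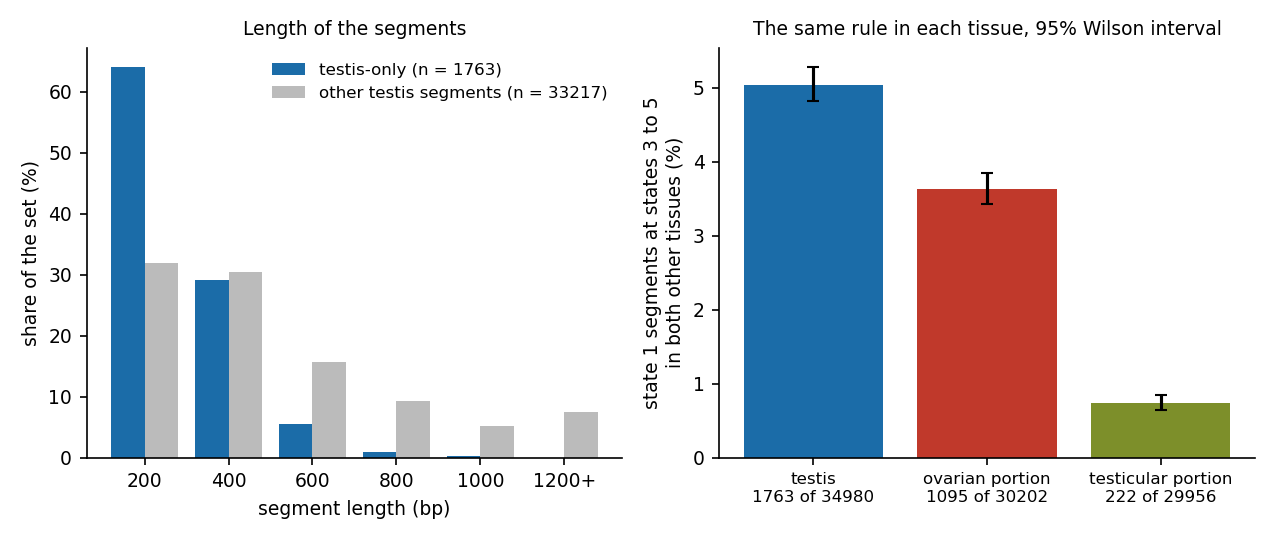
Left, share of each set (%) by segment length (bp) for the 1763 testis-only regions (blue) and the other 33217 testis segments in state 1 (grey). Right, share (%) of the state 1 segments of each tissue that were at states 3 to 5 in both other tissues, with 95% Wilson intervals as error bars. The 200 bp class holds 64.0% of the testis-only regions, and the right-hand bars stand at 5.04%, 3.63% and 0.741%.

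Each region was the top of a somewhat wider accessible stretch. In the testis the unbroken run of states 1 and 2 around a region had a median length of 1000 bp, with quartiles of 800 bp and 1200 bp. For the other testis segments the median was 1600 bp, and among segments of 200 bp it was 800 bp for the regions and 1000 bp for the others. In 1564 regions, or 88.7%, neither portion reached state 2 anywhere in that run, so the whole stretch stayed at state 3 or beyond in the ovotestis. In the other 199, a shoulder of the run overlapped state 1 or 2 of a portion. The longest run around a region spanned 9200 bp. State 1 of either portion lay within 2 kb of 92 regions (5.22%). The rule had left out segments that overlapped state 1 of a portion, and the share for other sites was not computed.

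The 10 longest regions show the pattern bin by bin. They are the 6 of 1000 bp and 4 of the 16 of 800 bp, taken where the portions held the higher state numbers. A 1000 bp region lay on scaffold 1 at 59009001 to 59010000, inside a testis run of states 1 and 2 of 2200 bp. There the testicular portion held state 4 over all 1000 bp and the ovarian portion held state 3 over 600 bp and state 4 over 400 bp. A region of 1000 bp on scaffold 5 at 120559401 to 120560400 was at state 3 throughout in both portions. The nearest state 1 of the ovarian portion was 242000 bp away and that of the testicular portion 84600 bp away, while the testis had another segment 200 bp away. A region on scaffold 4 at 125404201 to 125405000 spanned 800 bp, with state 4 throughout in the ovarian portion and state 3 throughout in the testicular portion. Within 5 kb of it, states 1 to 3 covered 86% of the testis, 88% of the testicular portion and 8% of the ovarian portion. The last example is thus a place where the testicular portion followed the testis at the level of state 3 and the ovarian portion did not. A region on scaffold 17 at 10924801 to 10925800 had state 3 throughout in both portions, and states 1 to 3 covered 20% of the flanking 5 kb in the testis, 12% in the ovarian and 14% in the testicular portion.

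**Figure D4:**
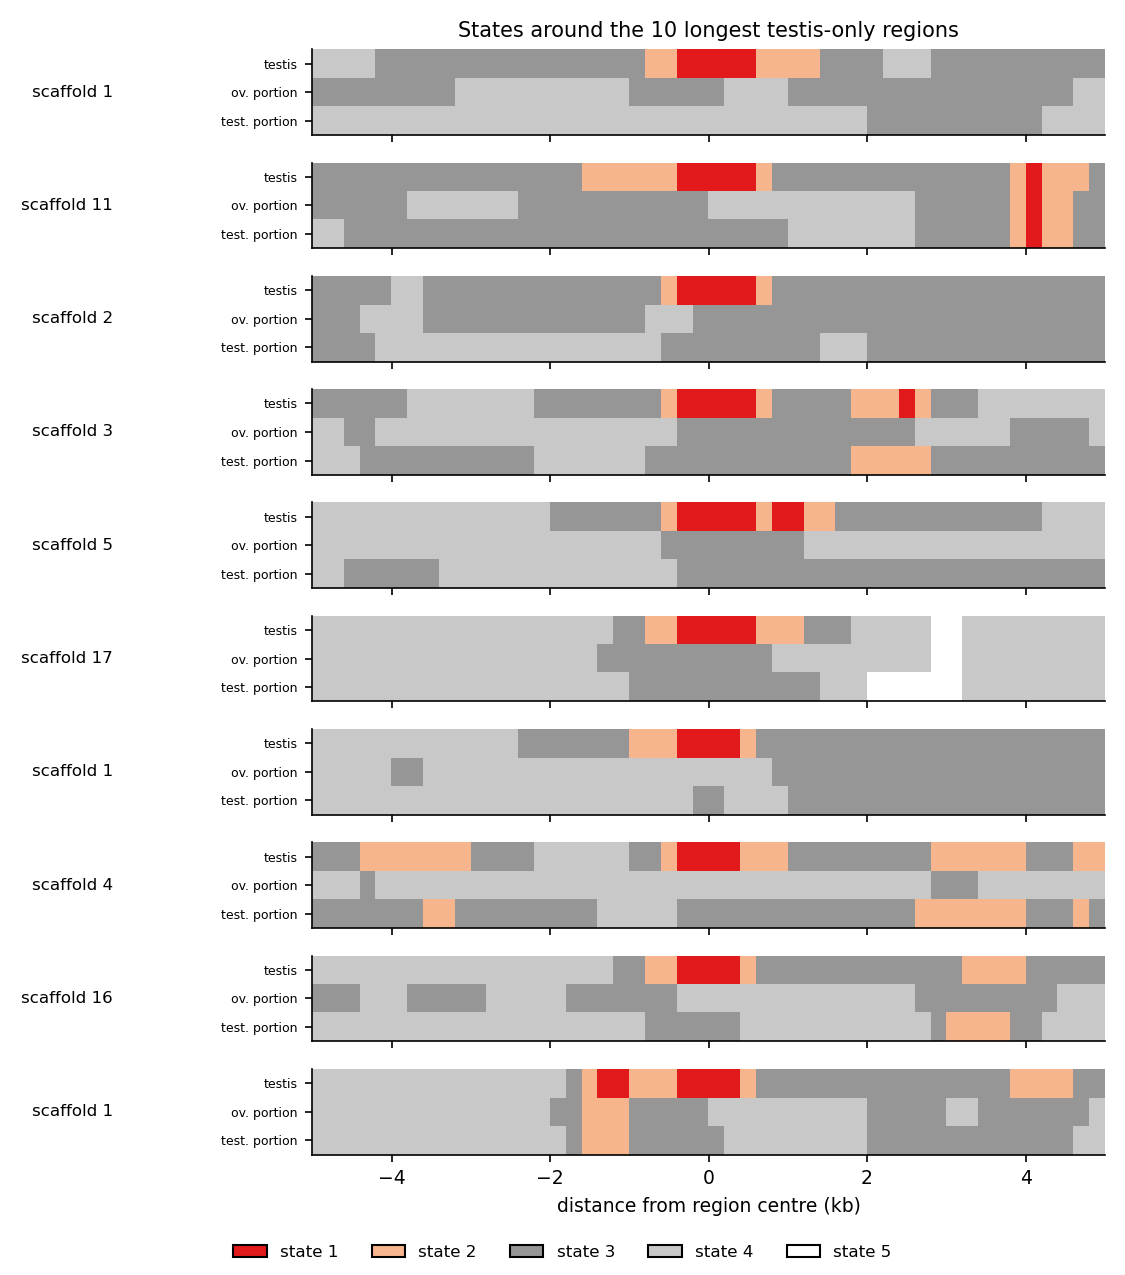
States in 200 bp bins within 5 kb of the centre of the 10 longest testis-only regions, one block per region with the testis, the ovarian portion and the testicular portion as rows, and colours for states 1 to 5. State 1 sits at the centre of each testis row, flanked by state 2, while the rows of the portions hold states 3 and 4 there. In the second block (scaffold 11) all tissues share a second segment about 4 kb away.

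A region held at state 5 in the ovarian portion lay on scaffold 9 at 82186601 to 82187000. State 5 covered all 400 bp there, and the testicular portion held state 4 throughout. Within 100 kb, states 1 to 3 covered 54.4% of the testis, 38.9% of the testicular portion and 7.2% of the ovarian portion. The nearest state 1 was 3600 bp away in the testis, 432000 bp away in the testicular portion and 531600 bp away in the ovarian portion. The other region of this kind, on scaffold 11 at 21270401 to 21270600, was 200 bp long. Within 100 kb of it, states 1 to 3 covered 35.3% of the testis, 26.9% of the testicular portion and 21.7% of the ovarian portion, and the nearest state 1 was 14000 bp away in the testis and 93000 bp away in each portion. Closer by the order was turned: the 5 kb on each side held states 1 to 3 over 54% in the testis, 64% in the ovarian and 66% in the testicular portion.

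The regions lay apart from other testis segments in state 1 more often than the remaining testis segments did. Their surroundings were still more open than the genome at large. Within 20 kb, states 1 to 2 covered 8.9% in the testis, against 5.63% of all testis bins. Of the 1763, 1090 (61.8%, 59.5% to 64.1%) had no other testis segment in state 1 within 10 kb, against 47.8% of the other testis segments (47.2% to 48.3%). The difference was 14.1 percentage points (Newcombe 95% interval 11.7 to 16.4). Among segments of 200 bp it was 13.7 points (10.6 to 16.6), with 61.3% of regions and 47.7% of the others so isolated. The median distance to the nearest other state 1 segment of the testis was 16600 bp for the regions and 9200 bp for the others. The nearest state 1 of the ovarian portion lay at a median of 31600 bp from a region (quartiles 12000 bp and 82000 bp) and that of the testicular portion at 29000 bp (10400 bp and 78300 bp). For 210 regions (11.9%) there was no state 1 of either portion within 100 kb, and 104 of these had no other testis segment in that range either.

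Isolation differed among the regions by the states of the portions. It was found for 58.1% of the regions at state 3 in both portions (55.1% to 61.1%), and for 71.1% of those at state 4 or 5 in both (64.9% to 76.6%). The classes low in a single portion lay between, at 65.4% (60.3% to 70.2%) with the ovarian portion low and 65.1% (57.1% to 72.3%) with the testicular portion low. Their intervals overlap those of both other classes. The regions low in both portions were also in less open surroundings in every tissue. Within 100 kb, states 1 to 3 covered a mean of 35.6% in the testis around these, against 45.9% around the regions at state 3 in both. Around the regions at state 3 in the testicular portion and low in the ovarian portion, the order of the portions was kept within 100 kb. The means there were 40.2% in the testis, 36.5% in the testicular portion and 31.3% in the ovarian portion. The reverse class had 38.8%, 33.5% and 35.9%. The classes were set by the portions' own states at the regions, and these surroundings adjoin those bins. Part of this order can therefore follow from the choice of the classes.

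The excess of the testis extended beyond the regions into their surroundings. Over the 5 kb on each side, states 1 to 2 covered a mean of 13.6% in the testis, 3.88% in the ovarian and 3.95% in the testicular portion. These flanks begin at the edge of the state 1 segment, so they include the state 2 shoulders of the region's own run. At 2 kb from the centre, the shares of states 1 to 2 were 7.57%, 3.97% and 3.715%. Within 20 kb the means were 8.9%, 4.96% and 4.96%, and within 100 kb they were 6.76%, 5.29% and 4.99%. For states 1 to 3 within 100 kb they were 42.8%, 37.9% and 39.8%. Over all bins of these tissues the shares were 39.7%, 37.8% and 39.1%, so part of the gap between tissues was present genome-wide. Around the other testis segments the order was turned, with 50.7% in the testis, 53.7% in the ovarian and 52.5% in the testicular portion. Region by region, the testis exceeded both portions within 100 kb in 866 of the 1763 regions, or 49.1% (46.8% to 51.5%), against 26.1% of the other segments (25.6% to 26.6%), a difference of 23.0 points (20.7 to 25.4). Restricted to segments of 200 bp, the shares were 48.1% and 27.2%. For the 500 kb on each side they were 46.6% and 26.7%. These flanks were not used by the rule, but they adjoin the bins that were, and the other segments are by the same rule those with an open bin in a portion.

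In the testis, the surroundings of the regions were more open than the genome at large at short range and close to it at 500 kb. States 1 to 3 covered 39.7% of all testis bins, against 48.5% within 20 kb of a region, 44.8% within 50 kb, 42.8% within 100 kb and 39.9% within 500 kb. For the other segments the value within 500 kb was 47.0%. States 1 to 2 covered 5.63% of all testis bins, against 8.9% within 20 kb of a region, 6.76% within 100 kb and 5.8% within 500 kb, and 9.27% within 500 kb of the others.

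Most regions had no other testis-only region within 50 kb. Of the 1763, 307 (17.4%, 15.7% to 19.3%) had one, and linking such neighbours gave 135 pairs, 11 groups of 3 and 1 group of 4. The share that even spacing at their density would give was not computed, so these counts do not show whether the regions cluster. The group of 4 lay on scaffold 12 from 89520801 to 89594200. Over these 73.4 kb, states 1 to 3 covered 62.9% in the testis, 61.3% in the testicular portion and 13.3% in the ovarian portion. The testis had 6 state 1 segments there and the portions had 0 each. So at this place the testicular portion matched the testis in the breadth of state 3 and had none of its state 1 segments. In a group of 3 on scaffold 3 from 24112001 to 24190000, the testis held 9 state 1 segments, the ovarian portion 1 and the testicular portion 0. States 1 to 3 covered 82.6% of that span in the testis, 70.5% in the testicular portion and 49.5% in the ovarian portion. A group of 3 on scaffold 1 from 109480001 to 109557200 was different: states 1 to 3 covered 33.4% in the testis, 31.6% in the testicular portion and 47.2% in the ovarian portion. There the 3 regions were the testis's only state 1 segments in a span that was more open in the ovarian portion by this measure.

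Testis-only regions varied less in number per Mb between scaffolds than testis segments in state 1 did. They numbered from 0.659 to 1.06 per Mb over the 16 scaffolds, a 1.61-fold range, whereas testis segments in state 1 ranged from 12.6 to 30.6 per Mb, a 2.42-fold range. As a share of the testis segments, they were lowest on scaffold 17, at 2.16% (1.58% to 2.94%; 39 regions), and highest on scaffold 6, at 7.7% (6.55% to 9.04%; 136 regions). The 95% interval lay below the pooled 5.04% on 4 scaffolds and above it on 5. Across the 16 scaffolds the share was lower where testis segments were denser (Pearson's r = -0.93, Spearman's rho = -0.90). The number of testis segments enters both measures, so part of this relation follows from their construction, and the scaffolds share the same pooled libraries. The order of scaffolds 17 and 6 was not particular to the testis. Regions that the same rule gave for the ovarian portion were 2.07% of its state 1 segments on scaffold 17 and 4.94% on scaffold 6. For the testicular portion the shares were 0.543% and 1.36%. Scaffold 3 held the most regions, 161, and also the highest number per Mb.

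**Figure D5:**
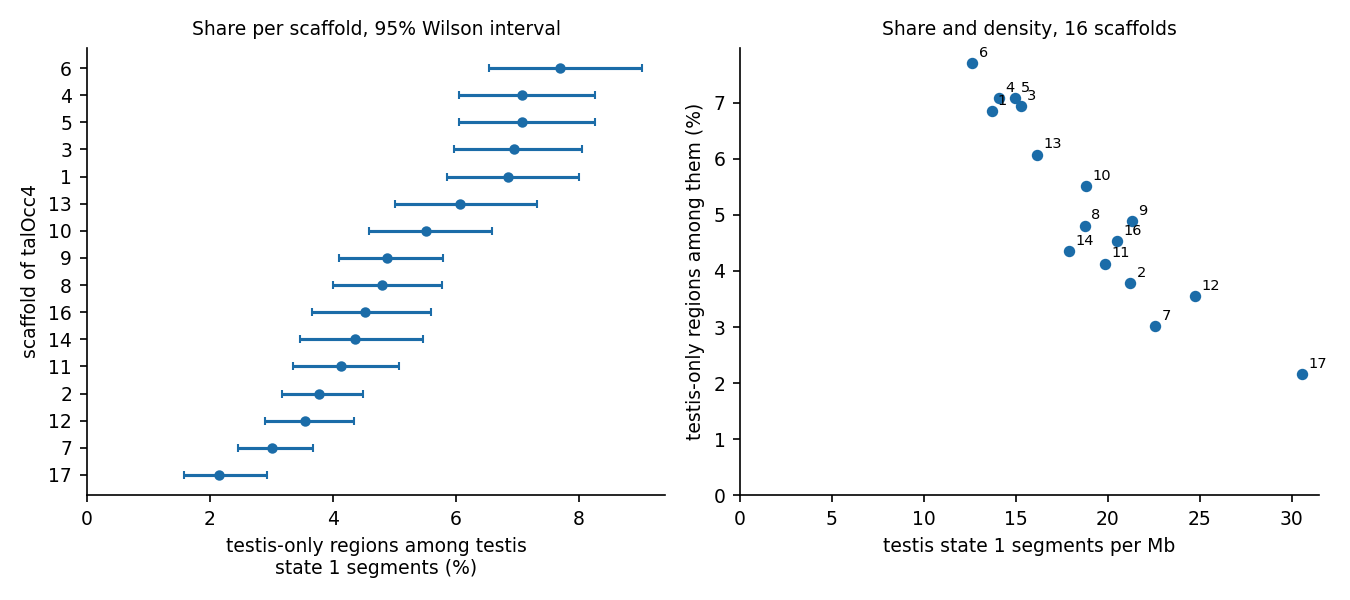
Left, testis-only regions as a share (%) of the testis segments in state 1 on each of the 16 scaffolds, with 95% Wilson intervals. Right, the same share against the number of testis state 1 segments per Mb, each point labelled with its scaffold number. The share goes from 2.16% on scaffold 17, the scaffold with the densest segments, to 7.7% on scaffold 6, the one with the sparsest.

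The same rule found fewer regions for either portion. In the ovarian portion it gave 1095 of 30202 state 1 segments, or 3.63% (3.42% to 3.84%), and in the testicular portion 222 of 29956, or 0.741% (0.65% to 0.845%). On all 16 scaffolds the testis had more such regions than either portion. State 1 covered 0.923% of the bins in the testis, 0.939% in the ovarian and 0.905% in the testicular portion. With more segments, those of the testis were thus shorter on average. The share of testis-only regions fell with segment length, and the part of length in these counts was not tested. The portions are parts of one organ and share a library series, whereas the testis differs from them in both, and the part of the series in these counts cannot be told apart from that of the tissue. The sets were alike in shape: 64.0% of the testis-only regions, 62.3% of the ovarian and 69.4% of the testicular portion regions were 200 bp long. The testis-only regions were the least isolated, at 61.8% without a neighbour within 10 kb, against 70.4% (67.6% to 73.0%) in the ovarian portion and 78.8% (73.0% to 83.7%) in the testicular portion. The testis also had the most state 1 segments, 34980 on these scaffolds, which bears on the distance to a neighbour, and its part in this order was not tested.

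The testis-only regions were also the set most often low in both other tissues. Of them 12.8% were at states 4 or 5 in both, against 6.94% of the ovarian portion regions (76 regions) and 2.25% of the testicular portion regions (5 regions). These are states that the rule itself used. For the testis, both other tissues are parts of one organ in one library series. For a portion, they are the testis and the adjoining portion of the same organ. The part of this difference in the order was not tested, and tissue and series cannot be told apart. At the centre of ovarian portion regions, states 1 to 3 were present in 82.5% in the testis and 81.4% in the testicular portion. At the centre of testis-only regions the values were 66.3% and 78.05% in the portions. Ovarian portion regions, like those of the testis, lay where their own tissue was the more open: at 10 kb from the centre, states 1 to 3 covered 43.6% in the ovarian portion, 38.9% in the testis and 40.4% in the testicular portion. For testis-only regions the corresponding shares were 44.8% in the testis, 38.0% in the ovarian and 40.1% in the testicular portion. For the testicular portion regions they were 36.7% in that portion, 38.5% in the testis and, for the ovarian portion, 31.8%, so there the testis had the larger share.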

How the data were processed

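The authors deposited 1 genome segmentation per mole tissue, with a state number from 1 to 5 for stretches of 200 bp bins on talOcc4. The labels attach each segmentation to both samples of its tissue. Samples were grouped by their titles, and no sample-level value exists. Per the submitters' processing notes, STAR 2.6.1d and the mouse build mm9 were used, with no step or file given. How the mole states were assigned is not stated in the labels or files, and state numbers are taken to mean the same in each tissue.

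Segments of state 1 were read with Python 3.11.15 and pandas 2.3.3, and the rule was applied bin by bin. Positions are 1-based. Wilson and Newcombe intervals came from statsmodels 0.14.6. No test between tissues was possible. The selection and measures were tested on simulated data. The regions and measures were chosen with earlier results of these data known. Described regions were the 10 longest (ties by the higher mean state number of the portions, then by scaffold and start), those at state 5 in a portion, the 5 largest groups linked within 50 kb (ties among the 11 groups of 3 by scaffold and start) and the lowest of each scaffold, of which a part is printed. Base composition and motifs were planned and not run, since no genome sequence of talOcc4 was used here. Nearest genes were not run because the deposited annotation lies on talOcc3, and the RefSeq table (MPIMG_talOcc4v2.1) gave no scaffold for its nuclear genes. The mouse segmentations were not used here.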

Additional observations from a re-analysis of the deposited data

How the results depend on the processing

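The count and share of testis-only regions depended on where the limits of the states were set. With states 4 or 5 required in both portions, 225 regions (0.643%) remained, and with states 1 and 2 merged as open there were 30037 (26.1% of the merged segments). The merged setting lets state 2 of the testis stand beside state 3 of the portions. A difference of 1 state then suffices, so its count is of a looser kind of region. Segments of at least 400 bp gave 635 regions (2.73%). A 200 bp margin, counting segments within 1000 bp once and taking all scaffolds kept the count within 1709 to 1864, and counting once gave a share of 5.45%. For the ovarian portion the stricter states gave 76 regions and the longer segments 413; for the testicular portion they gave 5 and 68. The order testis, ovarian portion, testicular portion was the same under both. The share of isolated regions was 76.6% within 5 kb, 23.5% within 50 kb and 71.1% for regions at states 4 or 5 in both portions; within 5 kb and 50 kb it stayed above that of the other segments (63.3% and 11.7%). The share with another region nearby was 9.53% within 20 kb and 27.2% within 100 kb. The excess of the testis over the ovarian portion in states 1 to 2 was 9.71 percentage points over 5 kb on each side and 19.1 over 2 kb. Both values include the state 2 shoulders of the regions. Comparisons restricted to 200 bp segments, and the states of the portions in longer segments and on all scaffolds, were added after seeing the data. Base composition, motif and nearest gene alternatives were not run. No paired analysis was possible because each tissue has a single pooled segmentation. For the same reason no sample could be left out, and the unknown depth limits what a difference of 1 state can show.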

Other observations

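Outside the 16 scaffolds the rule picked a further 101 regions among 2157 testis segments in state 1, or 4.68% (3.87% to 5.66%). Scaffold 15 held 34 of them, which is 4.47% of its 760 segments (3.22% to 6.19%), and scaffold 18 held 14 of 171, or 8.19% (4.94% to 13.3%). Both intervals include the 5.04% of the scaffolds examined.

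A group of 3 regions on scaffold 3 from 106527801 to 106585000 lay in a sparsely open stretch. Over its 57.2 kb, the 3 regions were the testis's only state 1 segments and the portions had none. States 1 to 3 covered 22.0% of the span in the testis, 14.3% in the ovarian and 24.5% in the testicular portion, and states 1 to 2 covered 5.59%, 1.05% and 0%.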
